A study of Xenopus tropicalis with 21 samples.

Results

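The proteasome genes are described here in liver of mature female tropical clawed frogs, Xenopus tropicalis. They were taken as every row with a single gene name that begins with psm, a letter from a to g and a number, in the deposited comparisons of the F1 and the F2 generation. That rule found 48 of 20288 rows, and all 48 were tested by the authors in both generations. By role they were 7 alpha ring genes (psma), 7 standard beta ring genes (psmb1 to psmb7), psmb8, psmb9 and psmb7.2, 6 cap ATPase genes (psmc), 11 further cap subunit genes (psmd), 3 psmd genes of assembly chaperones, 4 activator genes (psme), the inhibitor gene psmf1 and 4 core chaperone genes (psmg). The remaining 2, psmc3ip and psme3ip1, match only in name: they encode proteins that bind a proteasome protein and are not subunits. No row carried the name psmb10 or psmb11.

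The study compared descendants of exposed frogs with descendants of controls, 21 frogs in all. The F0 ancestors of the BaP lineages lived from the tadpole stage to maturity in benzo[a]pyrene (BaP, a polycyclic aromatic hydrocarbon) at 50 ng/L. The F1 and F2 females whose livers were sequenced were themselves kept without BaP. In F1 there were 5 control and 6 BaP frogs and in F2 5 of each, and how many families they came from is not given in the sources used here. Each level below is the authors' single FPKM per group (fragments per kilobase, scaled to library size). Genes can thus be compared per length, but library depth is unknown and the frogs' spread cannot be given as an SD. Log2 fold changes are BaP over control. A gene is called where the authors' q (their p adjusted over all tests) is under 0.05, and the standard error given after "±" is the one implied by the log2 fold change and its p.

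The proteasome breaks down proteins that carry ubiquitin. Its core is a barrel of outer alpha rings, which gate the entrance, and inner beta rings, in which psmb5, psmb6 and psmb7 supply the cutting sites. The cap sits on the barrel: its ATPases unfold the substrate and thread it inward, and its other subunits bind ubiquitin and remove it. In mammals, interferon-gamma raises PSMB8 and PSMB9, which replace PSMB5 and PSMB6 in newly built cores (the immunoproteasome), and the peptides so made are carried by TAP to MHC class I molecules. The activator made by PSME1 and PSME2 is raised by the same signal. A shortage of proteasome activity in mammals raises most subunit genes together through the factor NFE2L1.

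In F1 livers of the BaP lineage, nearly the whole particle had group levels above control, by small amounts, and psmb7.2 and psmb9 had the largest differences, at 2.97 and 2.02 times control. In F2 the standard core stood slightly below its control and the cap was near it. No member was called in either generation. Per the authors' deposited table of F1 values, the log2 fold change was above 0 for 40 of the 48 members, where 53.2% of all tested rows were above 0, and the members' median was 0.24 against 0.02 over all tested rows. Per the authors' deposited table of F2 values, it was below 0 for 31 of 48, where 54.2% of all tested rows were below 0, with a median of -0.10 against -0.03. Cuffdiff called 0 of 48 members in F1, where it called 1.67% of all tested rows, and 0 of 48 in F2, where it called 1.32%. At an unadjusted p under 0.05 the F1 table held 7 members higher, or 14.6% of them, against 4.35% of all tested rows, and 0 lower, against 4.55%. The F2 table held 0 members higher at that p, against 4.41% of rows, and 2 lower, or 4.17% of them, against 4.49%.

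**Figure D1:**
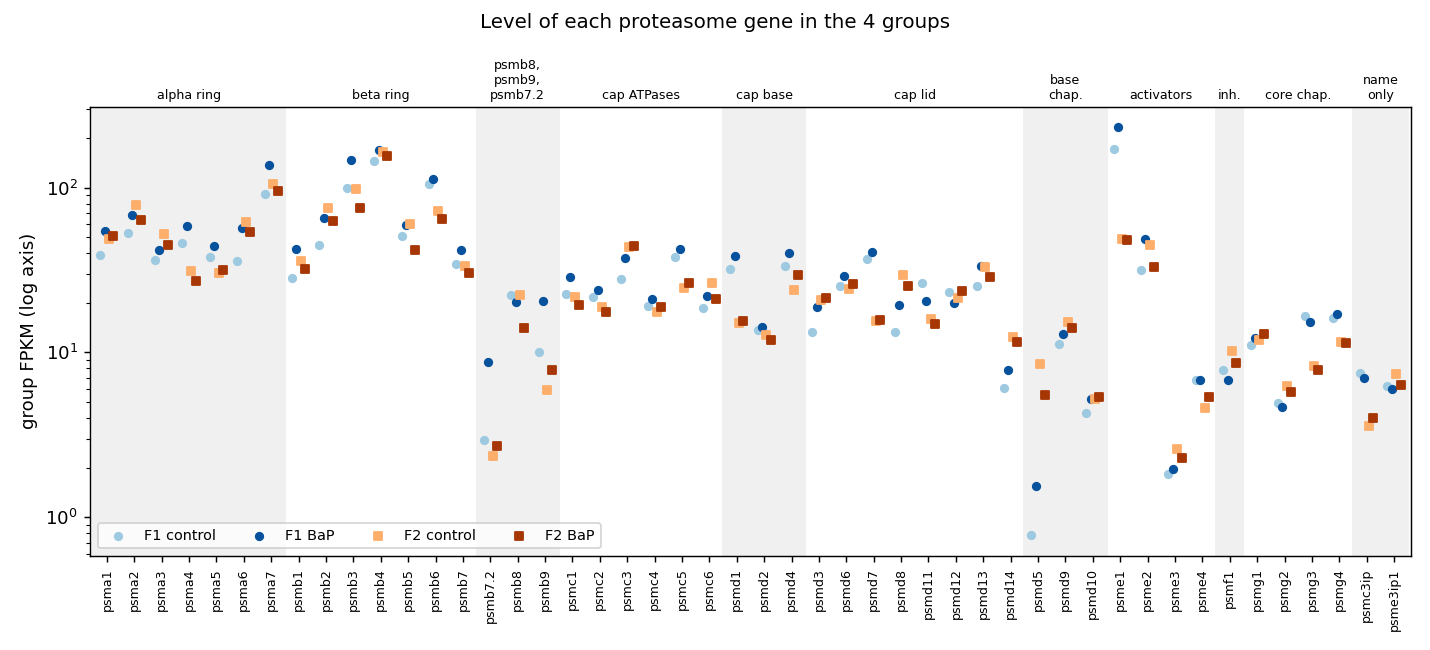
Group FPKM of each of the 48 genes (log axis) in the control and BaP groups of each generation, ordered by role; each point is the authors' single value for a group, so no error bar can be drawn. Core genes lie above most cap genes, psmd5 has its lowest point in F1 control, and psme1 is higher in both F1 groups than in both F2 groups.

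The alpha ring, which gates the core, had levels from 35.8 FPKM (psma6) to 91.0 (psma7) in F1 control livers. In F1, psma6 had 35.8 FPKM in control and 57.0 in BaP livers, and in F2 it had 61.9 and 53.5. The authors' deposited table gives it a log2 fold change of 0.67 ± 0.30 in F1 (p = 0.0256, q = 0.402) and -0.21 ± 0.26 in F2 (q = 0.961). The most abundant alpha gene, psma7, had 91.0 and 137.0 FPKM in F1 and 104.6 and 95.5 in F2. All 7 alpha genes had F1 values above control, from 0.19 (psma3) to 0.67 (psma6) on the log2 scale of the authors' deposited table, with a median of 0.35. In F2, 5 of 7 were below control, from -0.30 (psma2) to 0.06 (psma1), with a median of -0.20. Among all genes with a mean of 30 to 100 FPKM, 59.6% were above 0 in F1 and 37.0% in F2. Of the alpha genes psma6 alone reached an unadjusted p under 0.05, in F1.

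The standard beta ring had a wider range of levels in F1 control livers, from 28.4 FPKM (psmb1) to 144.6 (psmb4), and psmb4 was the highest standard core gene in all 4 groups. All 7 standard beta genes were above control in F1 and below it in F2. Once fold changes were centred on genes of 30 to 100 FPKM, however, psmb4 in F2 was at 0.0023. Among all genes of 30 to 100 FPKM, 59.6% were above 0 in F1 and 37.0% in F2. At 100 to 1000 FPKM these shares were 66.3% and 28.6%. For psmb1, a subunit with no cutting site of its own, the levels were 28.4 and 42.5 FPKM in F1 and 36.1 and 31.9 in F2. The authors' deposited table gives psmb1 a log2 fold change of 0.58 ± 0.29 in F1 (p = 0.0455, q = 0.538). Another structural subunit gene, psmb3, had 98.7 and 146.7 FPKM in F1 and 97.9 and 75.1 in F2, with 0.57 ± 0.29 in F1 (p = 0.0499, q = 0.561) and -0.38 ± 0.24 in F2 (q = 0.754) per the authors' deposited tables. The levels of both genes lay on the opposite side of control in the later generation, and neither passed the test in either.

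Of the standard catalytic genes, psmb5, whose product cuts after hydrophobic residues, had 50.9 FPKM in F1 control, 59.4 in F1 BaP, 60.4 in F2 control and 42.0 in F2 BaP livers. Its log2 fold change per the authors' deposited tables was 0.22 ± 0.30 in F1 (q = 0.9995) and -0.52 ± 0.24 in F2 (p = 0.0311, q = 0.460). The F2 value was the lowest of the standard core. For psmb6, which cuts after acidic residues, the levels were 105.1 and 112.9 FPKM in F1 and 72.4 and 64.7 in F2, and its F1 log2 fold change of 0.10 was the smallest of the core per the authors' deposited table. The trypsin-like subunit gene psmb7 had 34.3 and 41.5 FPKM in F1 and 33.7 and 30.3 in F2. These 3 genes differed from control by less than their standard error except psmb5 in F2.

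The inducible genes were unlike one another: psmb9 was above control in both generations and psmb8 below it, without a call for either. In F1 livers psmb9 (chromosome 8, 73274553 to 73293580 in assembly UCB_Xtro_10.0) had 10.1 FPKM in control and 20.4 in BaP livers. Its log2 fold change per the authors' deposited table was 1.02 ± 0.33 (p = 0.0018, q = 0.0816), which missed the threshold. In F2 livers psmb9 had 5.93 and 7.81 FPKM, a log2 fold change of 0.40 ± 0.29 per the authors' deposited table (q = 0.820). The psmb7.2 gene (chromosome 8, 73670441 to 73679494) is named as a second psmb7 gene, and no further role is assigned to it here. It had 2.95 and 8.76 FPKM in F1 and 2.37 and 2.72 in F2, and in F1 it had the smallest q of all members per the authors' deposited table (log2 fold change 1.57 ± 0.48, p = 0.00115, q = 0.0611). By contrast psmb8, placed on an unassigned scaffold of that assembly (9753 to 22499), had 22.2 and 20.3 FPKM in F1 and 22.4 and 14.1 in F2. The authors' deposited tables give psmb8 -0.13 ± 0.41 in F1 (q = 0.9995) and -0.67 ± 0.55 in F2 (q = 0.872), the widest errors of the members in F2.

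**Figure D2:**
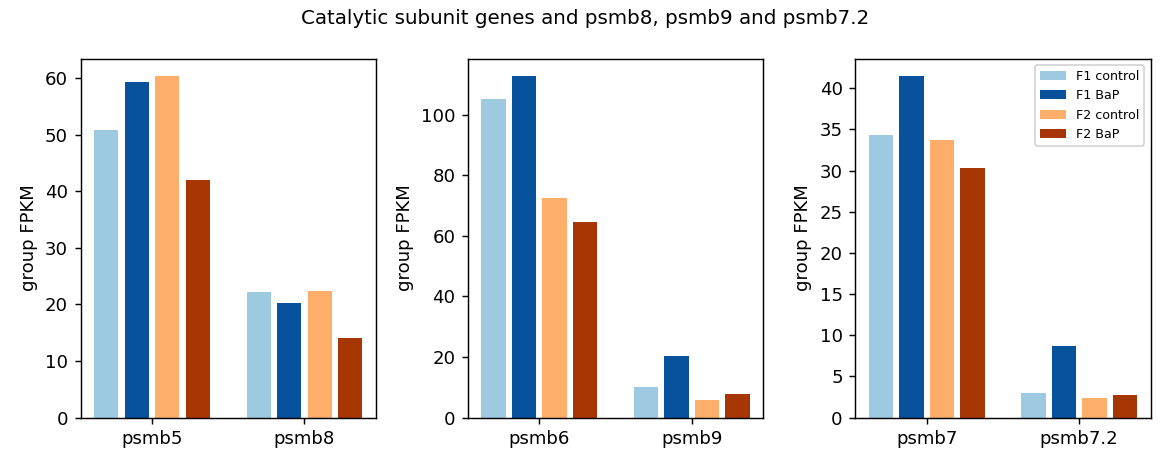
Group FPKM (bars from 0, the authors' single value per group) of the standard catalytic genes psmb5, psmb6 and psmb7, each beside the gene set against it, psmb8, psmb9 or psmb7.2; the pair with psmb7.2 is made by name. In F1 BaP livers psmb9 stood at 20.4 FPKM against 10.1 in control and psmb7.2 at 8.76 against 2.95, while psmb8 was at 20.3 against 22.2.

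Each of these genes was then set against a standard gene within each group. Of the summed FPKM of psmb9 and psmb6, psmb9 made up 8.74% in F1 control and 15.3% in F1 BaP livers, and 7.58% and 10.8% in F2. The share of psmb7.2 in its sum with psmb7, a pair made by name only, was 7.90% and 17.4% in F1 and 6.57% and 8.23% in F2. For psmb8 with psmb5 the share was 30.3% and 25.5% in F1 and 27.1% and 25.1% in F2. Standard genes therefore held the larger part of each pair in all 4 groups. The psmb8 level was 2.20 times that of psmb9 in F1 control livers and 0.996 times in F1 BaP livers. No error can be attached to these shares, because each rests on the authors' 1 value per group, and they are shares of transcripts, not of protein.

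Both psmb9 and psmb7.2 lie in the stretch of chromosome 8 that holds MHC genes, 396 kb apart by their starts. Within 500 kb of the start of psmb9 20 rows are reported, of which 19 were tested in F1 and 18 in F2 (a window chosen after the values were seen). In the authors' deposited table for F1, 6 of the 19 were higher at an unadjusted p under 0.05, psmb9 and psmb7.2 among them, and 0 were lower, against 4.35% and 4.55% of all tested rows. The window is centred on a gene already seen to be high, so this count is a description only. Of the 19, 1 was called by Cuffdiff, where 1.67% of all tested rows were. The peptide transporter gene tap1 rose from 5.24 to 13.7 FPKM in F1 (log2 fold change 1.38, q = 0.0279) and from 2.43 to 5.16 in F2 (1.09, q = 0.0308) per the authors' deposited tables. Between psmb9 and tap1, LOC100485711 had 1.09 in F1 and 0.73 in F2, per the authors' deposited tables. The next gene after tap1, LOC116406716, had 1.35 and 0.66 there. Further out, hla-dqa1 had 1.02 and 0.01 per the authors' deposited tables. The other tested genes of the window had values on both sides of control. Between LOC116406716 and psmb7.2, notch4 had 0.09, gpsm3 -0.04, pbx2 0.11, rnf5 -0.19, agpat1 -0.07, egfl8 0.86 and c4a 0.35 in F1 per the authors' deposited table, each with an unadjusted p above 0.05. Beyond psmb7.2, cenpa had -0.33, cyp21a2.1 -0.69 and tnxb 0.13 in F1, and on the far side of psmb9, LOC100495183 had 0.43, mhc2a -0.33 and brd2 -0.08, likewise with an unadjusted p above 0.05, per the authors' deposited table. In F2, 3 of 18 rows were higher at that p, against 4.41% of all tested rows, and 0 lower, and psmb9 and psmb7.2 were not among them.

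**Figure D3:**
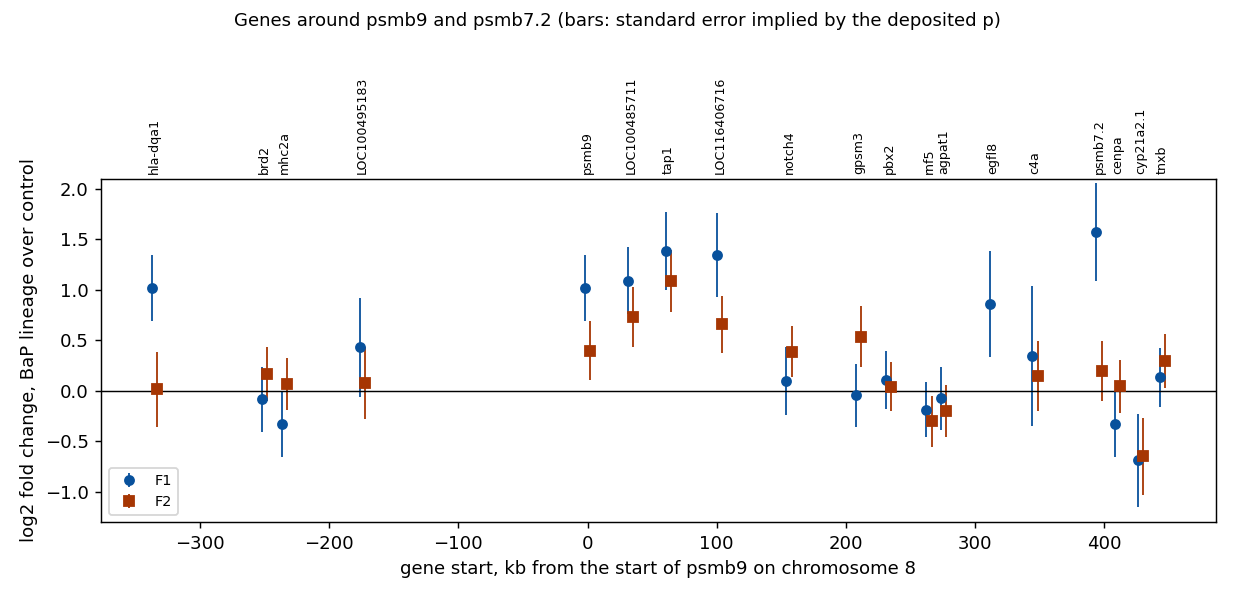
Log2 fold change (points; bars are the standard error implied by the deposited p) of the reported genes tested within 500 kb of psmb9, against the distance of its start from that of psmb9 in kb, for F1 (circles) and F2 (squares). In F1, hla-dqa1, psmb9, LOC100485711, tap1, LOC116406716 and psmb7.2 lie above 1, and the genes from notch4 to c4a lie nearer 0 apart from egfl8.

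The cap ATPases, which unfold the substrate, had F1 control levels from 18.7 FPKM (psmc6) to 38.0 (psmc5), a 2.03-fold range. All 6 were above control in F1, from 0.12 (psmc2) to 0.43 (psmc3) on the log2 scale of the authors' deposited table, and 3 of 6 were above it in F2, from -0.33 (psmc6) to 0.12 (psmc4). For psmc3 the levels were 27.9 and 37.6 FPKM in F1 and 43.3 and 44.3 in F2. For psmc6 they were 18.7 and 22.1 in F1 and 26.4 and 21.0 in F2. None of the 6 reached an unadjusted p under 0.05 in either table.

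Among the other base subunits, the scaffold genes psmd1 and psmd2 had 32.1 and 38.4 FPKM and 13.7 and 14.2 FPKM in F1. The ubiquitin receptor gene psmd4 had 33.3 and 39.9 FPKM in F1 and 24.0 and 29.4 in F2. Its log2 fold change was 0.26 ± 0.29 in F1 and 0.29 ± 0.24 in F2 per the authors' deposited tables (q = 0.9995 and 0.881), so psmd4 was the cap gene with the highest F2 value. The 8 psmd genes of the lid had F1 control levels from 6.11 FPKM for psmd14, the enzyme that removes ubiquitin, to 36.8 for psmd7. In F1, 6 of 8 lid genes were above control, from -0.36 (psmd11) to 0.55 (psmd8) per the authors' deposited table, and in F2 4 of 8 were, from -0.22 (psmd8) to 0.14 (psmd12), with psmd11 turning to 0.0042 under the same centring. The lid gene psmd8 had 13.3 and 19.5 FPKM in F1 and 29.4 and 25.2 in F2. Among the psma, psmb, psmc and psmd genes, psmd11 and psmd12 were the only ones other than psmb8 with F1 levels below control. In F1 psmd11 had 26.3 and 20.5 FPKM and psmd12 had 23.2 and 19.97. The authors' deposited table gives these 2 lid genes -0.36 ± 0.29 (q = 0.929) and -0.22 ± 0.28 (q = 0.9995). The lid gene sem1, which the name rule does not take in, was also below control in F1, with 230.2 and 183.3 FPKM (-0.33, q = 0.972). No base or lid gene reached an unadjusted p under 0.05.

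**Figure D4:**
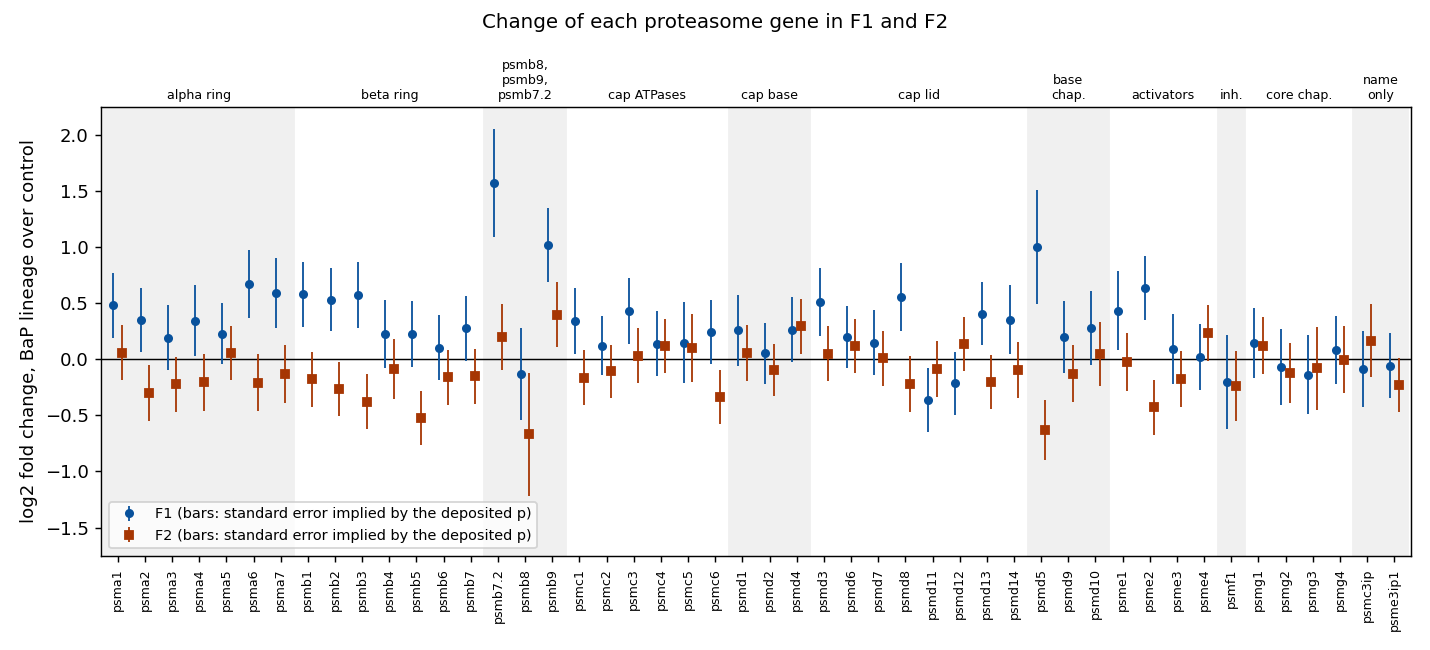
Log2 fold change of BaP over control for each of the 48 genes in F1 (circles) and F2 (squares), ordered by role; bars are the standard error implied by the deposited log2 fold change and p. All 14 standard core genes lie above 0 in F1 and 12 of them below 0 in F2. When centred on genes of 30 to 100 FPKM, psmb4 is at 0.0023 in F2. Among all genes of 30 to 100 FPKM, 59.6% were above 0 in F1 and 37.0% in F2. The largest F1 values are those of psmb7.2, psmb9 and psmd5 (with a pseudocount of 1 FPKM psmb7.2 is at 1.31 and psmd5 at 0.52).

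The 3 base chaperones, which help the ATPase ring assemble and leave the finished particle, were all above control in F1. For psmd5 the levels were 0.778 FPKM in F1 control, 1.56 in F1 BaP, 8.56 in F2 control and 5.53 in F2 BaP livers. The authors' deposited tables give psmd5 1.0 ± 0.51 in F1 (p = 0.0484, q = 0.551) and -0.63 ± 0.26 in F2 (p = 0.0173, q = 0.341). The direction was opposite in the generations, and psmd5 was the one member with an unadjusted p under 0.05 in both tables. Its F1 control level was the lowest of all members, and with a pseudocount of 1 FPKM its F1 log2 fold change was 0.52. Its F2 control level was 10.99 times its F1 control level, the largest such ratio of the members, although the tables were scaled separately and this difference was not tested. Of the others, psmd9 had 11.3 and 12.9 FPKM in F1 and 15.4 and 14.1 in F2. The gankyrin gene psmd10 had 4.28 and 5.18 in F1 and 5.23 and 5.39 in F2.

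Of the activators, which open the core without ubiquitin, psme1 was the highest member in both F1 groups, with 172.6 FPKM in control and 232.8 in BaP livers. In F2 it had 48.9 and 48.1 FPKM. The log2 fold changes of psme1 were 0.43 ± 0.35 (q = 0.943) and -0.02 ± 0.26 (q = 0.999) per the authors' deposited tables. Its partner psme2, which lies beside it on chromosome 1, had 31.5 and 49.0 FPKM in F1 and 44.7 and 33.2 in F2. The authors' deposited tables give psme2 0.64 ± 0.29 in F1 (p = 0.0274, q = 0.413) and -0.43 ± 0.24 in F2 (p = 0.0780, q = 0.648). The level of psme1 was 5.48 times that of psme2 in F1 control and 4.76 times in F1 BaP livers, but 1.09 and 1.45 times in F2. In mammals the proteins of both genes build the same ring. Their transcript levels were far apart in F1 and near each other in F2, a contrast that rests on single group values and was not tested. The nuclear activator gene psme3 had 1.84 and 1.96 FPKM in F1 and 2.59 and 2.29 in F2. The large activator gene psme4 had 6.76 and 6.84 in F1 and 4.58 and 5.38 in F2. Neither reached an unadjusted p under 0.05.

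The inhibitor gene psmf1 had 7.87 and 6.84 FPKM in F1 and 10.2 and 8.66 in F2, below control both times, with log2 fold changes of -0.20 ± 0.42 and -0.24 ± 0.31 per the authors' deposited tables. The core chaperones, which pair up to build the alpha ring, were close to control. Their log2 fold changes per the authors' deposited table for F1 were 0.14 (psmg1), -0.07 (psmg2), -0.14 (psmg3) and 0.08 (psmg4), a median of 0.01. In F2 the authors' deposited table gives 0.12, -0.12, -0.08 and -0.0041 in the same order. In F1 control livers their levels ran from 4.93 FPKM (psmg2) to 16.8 (psmg3). The name matches psmc3ip and psme3ip1 had -0.09 and -0.06 in F1 and 0.17 and -0.23 in F2 per the authors' deposited tables.

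Levels over the particle followed its parts. The median level of the 14 standard core genes was 45.5 FPKM in F1 control and 58.8 in F1 BaP livers, and 61.2 and 52.2 in F2. The median of the 17 cap subunit genes was 23.2 and 23.8 in F1 and 21.4 and 21.0 in F2. By these medians core over cap was 1.96 and 2.47 in F1 and 2.86 and 2.49 in F2. The gene at the cap median changed between groups, from psmd12 in F1 control to psmc2 in F1 BaP livers. In F1 15 of the 17 cap genes were above control. Their median log2 fold change was 0.24, against 0.35 for the core, per the authors' deposited table. Summed, the core had 846.7 and 1097 FPKM in F1 and 948.5 and 829.5 in F2. The cap sums were 396.9 and 457.8 in F1 and 376.5 and 371.5 in F2. Fold changes in these tables move with level, so the members were also read against genes of like level. Among all genes with a mean of 30 to 100 FPKM, the median F1 log2 fold change per the authors' deposited table was 0.09 (1173 genes), and for the 16 members in that range it was 0.31, with 16 of 16 above 0 against 59.6% of all. For the 17 members at 10 to 30 FPKM it was 0.14 against 0.01. In F2 the 15 members at 30 to 100 FPKM had a median of -0.20 against -0.09, and the 20 at 10 to 30 FPKM had -0.04 against -0.03. At 100 to 1000 FPKM 5 members had 0.43 against 0.17 in F1, and 2 had -0.11 against -0.19 in F2. At 1 to 10 FPKM 10 members had 0.06 against 0.01 in F1, and 11 had -0.08 against -0.02 in F2.

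The generations were then compared for each member. No difference passed: 0 of 48 members had an adjusted p under 0.05 (normal test of F2 minus F1, Benjamini-Hochberg over 11678 genes), where 0.959% of all genes tested in both did. At an unadjusted p under 0.05, 8 members (16.7%) were lower in F2 than in F1, against 4.76% of all genes, and 0 were higher, against 4.27%. The difference was below 0 for 42 of 48 members, where 53.9% of all genes were below 0. Of the members 25 (52.1%) had a value above 0 in F1 and below 0 in F2, where 31.3% of all genes did. The 8 were psma6, psmb1, psmb2, psmb3, psmb7.2, psmd5, psmd8 and psme2. For psmd5, with an F1 control level of only 0.778 FPKM, the difference was -1.63 ± 0.57 (95% interval -2.75 to -0.51, adjusted p = 0.180, normal test on the authors' values). For psme2 it was -1.07 ± 0.38 (-1.81 to -0.33, adjusted p = 0.190, normal test on the authors' values), and for psmb3 -0.95 ± 0.38 (-1.70 to -0.21, adjusted p = 0.311, normal test). The difference for psmb7.2 was -1.37 ± 0.57 (-2.48 to -0.26, adjusted p = 0.339, normal test on the authors' values), while that for psmb9 was -0.62 ± 0.44 (-1.48 to 0.23), an interval that includes 0. The beta gene psmb2 had 45.1 and 65.1 FPKM in F1 and 75.4 and 62.9 in F2. The median difference was -0.60 over the 14 standard core genes and -0.20 over the 17 cap genes. Fold changes move with level, and neither these medians nor the shares above are matched for it. All genes of 30 to 100 FPKM had median log2 fold changes of 0.09 in F1 and -0.09 in F2. Those of 100 to 1000 FPKM had 0.17 and -0.19, and those of 10 to 30 FPKM 0.01 and -0.03. Across the 48 members the F1 and F2 fold changes had a Spearman correlation of -0.15 and a Pearson correlation of 0.0074, against -0.099 and 0.035 over all 11678 genes, given as a description of genes that share their libraries.

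**Figure D5:**
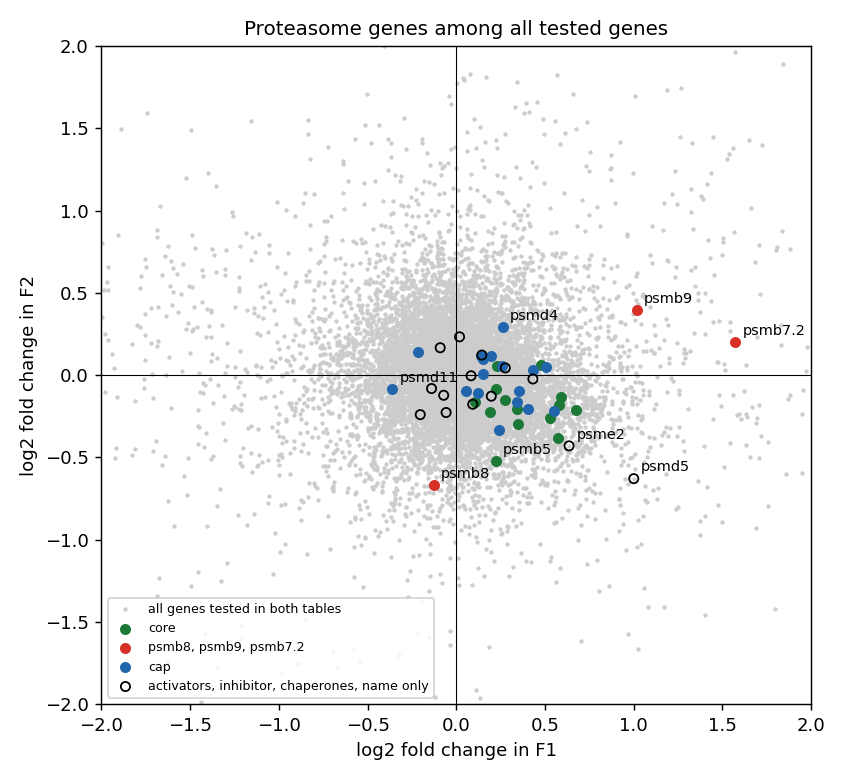
Log2 fold change in F1 (x axis) against F2 (y axis) for all 11678 genes tested in both tables (grey; 140 lie beyond 2 in either direction and are not drawn) and for the proteasome genes, coloured by role. The 14 standard core genes lie to the right of 0 and 12 of them below 0. Of all 11678 genes, 31.3% had a value above 0 in F1 and below 0 in F2. When centred on genes of 30 to 100 FPKM, psmb4 is at 0.0023 in F2. Both psmb9 and psmb7.2 lie to the upper right, and psmd5 and psme2 lie to the lower right.

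Regulators and partners of the proteasome gave 1 call. Of 22 listed genes with a row, 20 were tested in F1, where 1 was called higher and 18 were above 0, and 20 in F2, where 0 were called by Cuffdiff, 0 had an unadjusted p under 0.05 and 15 were below 0. Over all tested rows 1.67% were called and 53.2% above 0 in F1, and 1.32% were called and 54.2% below 0 in F2. At an unadjusted p under 0.05, 4.41% of all tested rows were higher and 4.49% lower in F2. The called gene was ecpas, which encodes a scaffold that binds the proteasome: it rose from 4.57 to 9.47 FPKM in F1 (log2 fold change 1.05, q = 0.0279) and had 4.16 and 4.61 in F2 (0.15, q = 0.981) per the authors' deposited tables. That difference between generations was -0.90 ± 0.38 (adjusted p = 0.346, normal test on the authors' values). The cap-associated thioredoxin gene txnl1 had 8.65 and 14.6 FPKM in F1 (0.76, p = 0.0163, q = 0.317) per the authors' deposited table. For nfe2l1 the levels were 2.58 and 3.40 FPKM in F1 and 13.3 and 11.4 in F2, and for the related stress factor gene nfe2l2 15.5 and 20.2 and then 26.8 and 26.8. The authors' deposited tables give nfe2l1 0.40 and -0.22 (q = 0.958 and 0.956). The maturation factor gene pomp had 16.7 and 21.1 FPKM in F1 and 50.9 and 51.4 in F2. The ubiquitin receptor gene adrm1 had 24.8 and 27.5 in F1 and 19.1 and 18.7 in F2. Of the deubiquitinases of the cap, usp14 had 2.005 and 2.19 in F1 and 2.74 and 2.16 in F2, and uchl5 had 1.84 and 2.14 and then 3.34 and 2.96.

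All 8 tested genes of ubiquitin and its segregase were above 0 in F1 and below 0 in F2, with medians of 0.44 and -0.15 per the authors' deposited tables. Cuffdiff called 0 of them in either generation. Over all tested rows 53.2% were above 0 in F1 and 54.2% below 0 in F2. For this list and the next, Cuffdiff called 1.67% of all tested rows in F1 and 1.32% in F2. At an unadjusted p under 0.05, 4.35% of all tested rows were higher and 4.55% lower in F1, and 4.41% and 4.49% in F2. In F1 1 of the 8 had an unadjusted p under 0.05, ufd1 with 0.59 (p = 0.0416, q = 0.514) per the authors' deposited table, and in F2 none did. The polyubiquitin genes ubb and ubc had 7.92 and 8.02 FPKM and 227.0 and 258.8 FPKM in F1, and 13.4 and 8.04 and 359.4 and 335.4 in F2. Of 13 listed genes of antigen processing and interferon control, 11 were tested in F1 and 13 in F2, and tap1 was the single call, and the single unadjusted p under 0.05, in each. In F1 10 of 11 were above 0 and in F2 8 of 13 below it. The class I light chain gene b2m had 354.3 and 580.0 FPKM in F1 and 775.5 and 786.1 in F2. The other transporter gene, tap2, had 0.705 and 0.565 in F1 and 1.69 and 1.27 in F2. The interferon response factor gene irf1 had 18.9 and 22.5 FPKM in F1 and 25.3 and 18.1 in F2, both with an unadjusted p above 0.05.

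The liver label and the other cells were checked by marker lists. Of 16 hepatocyte markers, 11 had usable values in both tables, from 47.7 to 2383 FPKM, and alb, c3, tf and vtga2 are left out because the authors marked them, in F1, F2 or both, as having too much data. Summed, the 11 hepatocyte markers had 7811 and 10038 FPKM in F1 and 12208 and 9565 in F2. In F1 11 of 12 tested were above 0 (median 0.28) and in F2 9 of 11 below it (median -0.30). Cuffdiff called 0 of them in either generation, and 0 reached an unadjusted p under 0.05. Over all tested rows 53.2% were above 0 in F1 and 54.2% below 0 in F2. Cuffdiff called 1.67% of all tested rows in F1 and 1.32% in F2, in either direction. At an unadjusted p under 0.05, 4.35% of all tested rows were higher and 4.55% lower in F1, and 4.41% and 4.49% in F2. These shares stand beside the counts of every marker list here. Among all genes of 100 to 1000 FPKM, 66.3% were above 0 in F1 and 28.6% in F2. From 1000 FPKM up these shares were 93.6% and 20.6%, so genes at the levels of most hepatocyte markers shared these directions. Leukocyte markers bear on psmb8 and psmb9, which such cells express in mammals: 17 of 19 had a row, none was at 0, and their summed level was 246.0 and 284.0 FPKM in F1 and 179.0 and 201.1 in F2. Of the F1 control sum, coro1a gave 98.3 FPKM and cd74 45.8, so it does not weigh all these genes alike. In F1 11 of 15 tested leukocyte markers were above 0 (median 0.21) and 4 below, none with an unadjusted p under 0.05. Their log2 fold changes ran from -0.31 (btk) to 0.62 (cd74, 45.8 and 70.6 FPKM) and 0.63 (cd3g), per the authors' deposited table. Present on all leukocytes, ptprc had 13.3 and 14.1 FPKM in F1. In F2 9 of 15 were above 0, and coro1a alone had an unadjusted p under 0.05 (0.70, p = 0.0052, q = 0.181) per the authors' deposited table. Summed erythrocyte markers (7 genes with usable values) were 1190 and 2267 FPKM in F1 and 4022 and 3192 in F2. In F1 7 of 7 were above 0, 4 were higher at an unadjusted p under 0.05 and 1, hbd, was called. The authors' deposited table gives hbd 1.17 in F1 (q = 0.0219). In F2 1 of 7 was above 0, and 0 were called or had an unadjusted p under 0.05. The difference between generations for hbd was -1.51 ± 0.42 (adjusted p = 0.0408, normal test on the authors' values). The globin genes hba1 and hbg1 were left out because the authors marked them as having too much data. Most of these sums came from hba3 (838.9 and 1644 FPKM in F1), so they do not stand for all red cell transcripts. Skeletal muscle markers (10 genes) summed to 16 and 3.62 in F1 and 13.0 and 5.48 in F2, with tnnc2 and tnni2 at 0 in F1 BaP. Of 4 tested, 3 were called lower in F1 and 1, acta1, in F2 (-1.77, q = 0.00755, per the authors' deposited table), where 3 were lower at an unadjusted p under 0.05. Pancreas markers (11 genes) summed to 623.1 and 704.3 in F1 and 335.9 and 346.6 in F2, sums made up mostly of the amylase genes amy2a and amy2b (361.1 and 256.3 FPKM in F1 control). Of the protease genes, ctrc had 0.433 and 14.4 FPKM in F1 and 0.316 and 5.17 in F2, and prss1 had 0.242 and 20.4 and then 0.463 and 6.17. Despite these levels prss1 was not called in F1 (q = 0.9995) or F2 (q = 0.820) per the authors' deposited tables. In F1 3 of 9 pancreas markers tested were called higher: ctrc, cpb1 (0 and 1.12 FPKM) and ctrb2 (0 and 1.17 FPKM). In F2 0 of 6 were called by Cuffdiff and 3 were higher at an unadjusted p under 0.05. In F1 control cpb1, ctrb1, ctrb2 and pnlip were at 0. The part of these cells in the members' values was not tested, and in whole liver a change in the number of cells of a type and in RNA per cell cannot be told apart.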

How the data were processed

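RNA of 21 livers (15 mg each) was read as 75 bp reads from stranded poly(A) libraries, per the labels' protocols. HISAT2, Trimmomatic 0.32.1, Cuffdiff 0.0.7 and Cufflinks 0.0.7 stand in the submitters' processing notes, which state neither roles nor order, and their settings are not given in the sources used. Per the file headers, each of the 2 tables is a Cuffdiff comparison of BaP with control. The deposited FPKM is 1 value per group. The deposited log2 fold change has no pseudocount, and the deposited p-value and q-value are the authors'. The deposited test statistic is a score: the normal quantile of the p was a median 2.29 times it, so it served only in an alternative. Gene positions, counted from 1, are those of the files; 46 of 48 members have both ends identical in RefSeq's table for UCB_Xtro_10.0.

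The standard error of a log2 fold change was its size over the normal quantile of its p, and 95% intervals are normal. F2 minus F1 was divided by the combined error and its p adjusted by Benjamini-Hochberg over all genes tested in both tables, in Python 3.11.15 with scipy 1.17.1. The procedure was tested on simulated data drawn with the same implied errors. That run cannot show whether the authors' p give the right errors. The comparison was made across all genes, and no list was tested. The test treats the authors' p as exact, and replicates as separate frogs.

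The members and lists were chosen with earlier results of these data known. The text names the catalytic genes, all psme, psmf and psmg genes, every member with an unadjusted p under 0.05, the extremes of each role, and listed partners that were fixed or reached that p. Alternatives were q under 0.01 or 0.1, q recomputed, a 1 FPKM minimum, a 1.5-fold minimum, pseudocounts of 0.1 and 1 FPKM, centring, other sets of members, and errors from the test statistic. Some genes of the lists and of the region around psmb9 are not reported here and are outside their counts.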

Additional observations from a re-analysis of the deposited data

How the results depend on the processing

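The count of 0 members called stayed 0 in both generations with q recomputed and among rows reaching 1 FPKM. It was also 0 at q under 0.01 and with a fold of at least 1.5. Both of these settings can only remove calls, so the 0 there says nothing about stability. At q under 0.1 the count became 2 of 48 in F1 (psmb7.2 and psmb9) and stayed 0 in F2. The share of all tested rows at that q is not given here, so the 2 cannot be set against it. At an unadjusted p under 0.05 the count was 7 of 48 in F1, all higher, where 4.35% of all tested rows were higher. In F2 it was 2 of 48 at that p, both lower, where 4.49% of all tested rows were lower. The count of members whose change differed between generations was 0 at an adjusted p under 0.1, among rows reaching 1 FPKM and with each table centred, where 204, 115 and 116 of all genes passed (112 as reported). With errors from the test statistic 1 gene of all passed, so the members' 0 there says nothing about stability. It was 8 at an unadjusted p under 0.05, a setting added after the data were seen. The F1 median of 0.24 stayed between 0.18 and 0.27 under the other settings. It was 0.15 when centred on genes of 30 to 100 FPKM, a setting added after the data were seen. Adding rows with several names or rows not tested could not move the median of either generation, because there were no such member rows. The F2 median of -0.10 moved to -0.028 when centred on genes of 10 FPKM or more and to -0.014 when centred on genes of 30 to 100 FPKM. Signs near 0 turned with centring. Centred on all tested rows, psme4 in F1 became -0.0060, and psme1 and psmg4 in F2 became 0.0089 and 0.028. Centred on genes of 10 FPKM or more, psmd2 and psme4 in F1 became -0.0043 and -0.038, and psme1 and psmg4 in F2 became 0.050 and 0.070. Centred on genes of 30 to 100 FPKM, psmd2, psme4 and psmg4 in F1 became -0.034, -0.068 and -0.0032, and psmb4, psmd11, psme1, psmg3 and psmg4 in F2 became 0.0023, 0.0042, 0.065, 0.0065 and 0.084. Both pseudocounts kept the sign of all 48 members in both tables. With 1 FPKM, however, psmd5 in F1 fell from 1.0 to 0.52 and psmb7.2 from 1.57 to 1.31. No paired analysis was possible because the tables hold 1 value per group; leaving out single frogs was not run for the same reason.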
